A study of Homo sapiens with 6 samples.

Results

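The genes described here were 8 transcription factors that define pancreatic lineage and the subtypes of pancreatic cancer, GATA6, HNF4A, FOXA1, FOXA2, PDX1, SOX9, KLF5 and TP63. They were chosen by gene symbol, and all 8 were found among the 62703 genes of the deposited RNA-seq table. Of these, 5 passed the filter on low counts and were tested (GATA6, FOXA1, FOXA2, SOX9 and KLF5). HNF4A, PDX1 and TP63 did not pass and are given as values only.

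The study deleted part of a super-enhancer of DKK1, named DKK1-SE, in the pancreatic cancer cell line PANC-1, and sequenced RNA of the edited and unedited cells. The groups were DKK1-SE+/+, the unedited PANC-1 cells (3 samples), and DKK1-SE-/-, PANC-1 cells in which CRISPR-Cas9 had removed e1, the core component of the super-enhancer (3 samples). Both were grown in DMEM with 10% fetal bovine serum. The DKK1-SE-/- cells came from a single homozygous subclone, so the 3 replicates were samples of 1 clone, and an effect of the deletion cannot be told apart from a property of that clone. Their p-values measure the spread between samples only. Total counts ranged from 16475810 in DKK1-SE+/+ replicate 2 to 21822314 in DKK1-SE+/+ replicate 1.

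Pancreatic tumours of the classical type keep an endodermal and ductal programme that GATA6, HNF4A, FOXA1, FOXA2 and PDX1 help to maintain. Basal-like or squamous tumours lose much of that programme, and a part of them express the p63 protein encoded by TP63. SOX9 and KLF5 act in ductal and progenitor cells, and PANC-1 is a poorly differentiated line with many mesenchymal features.

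DKK1, the gene the super-enhancer is named for, checked the labels. Its deposited TPM (a level scaled to transcript length and library size) was 229.2, 245.8 and 198.5 in DKK1-SE+/+ replicates 1 to 3, and 66.75, 79.75 and 82.66 in DKK1-SE-/- replicates 1 to 3. All 3 DKK1-SE-/- samples lay below all 3 DKK1-SE+/+ samples, so the libraries matched their labels in this gene.

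KLF5 rose and SOX9 fell in the DKK1-SE-/- cells, while GATA6, FOXA1 and FOXA2 did not pass the test. A gene is named called where its adjusted p was under 0.05 in edgeR's quasi-likelihood test, with Benjamini-Hochberg adjustment over all 15179 tested genes. Thus 2 of the 5 tested members were called, 1 in each direction. Of all tested genes 39.3% were called, 19.8% as higher and 19.5% as lower in DKK1-SE-/-, so the members' count was near the background and is not a result about the group as a whole. With 1 sample left out, the genes called ranged from 4095 of 15786 to 7558 of 15618. The study limited its calls to a p-value under 0.05, read here as unadjusted, and a fold change of at least 1.2. Read on the log2 scale, KLF5 alone passed, as did 8.66% of tested genes. KLF5 was close to this limit, at 1.21. No member passed it with library size alone or with no filter on low counts. The same held without DKK1-SE+/+ replicate 2, without DKK1-SE-/- replicate 1 and without DKK1-SE-/- replicate 3. Read as a linear fold, KLF5, SOX9 and GATA6 passed, as did 47.6% of tested genes. The log2 reading gave 1314 genes and the linear reading 7227. The total that the study gave, from its own test, was nearer to the log2 reading.

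KLF5 encodes a zinc finger factor of proliferating epithelial cells. Its counts were 122, 68 and 104 in DKK1-SE+/+ replicates 1 to 3. They were 199, 216 and 206 in DKK1-SE-/- replicates 1 to 3. Every DKK1-SE-/- sample was above every DKK1-SE+/+ sample, and the 3 edited samples differed little from each other. Scaled to library size, the mean was 4.96 ± 0.787 CPM (SD, n = 3) in DKK1-SE+/+ and 11.6 ± 0.613 CPM (SD, n = 3) in DKK1-SE-/-. The log2 fold change was 1.21 with an SE of 0.17 (edgeR adjusted p = 2.8e-04), a 2.32-fold rise. In bulk RNA, more cells with KLF5 and more KLF5 RNA per cell cannot be told apart.

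The TPM of KLF5 gave another picture of 1 sample. TPM was 3.04, 1.82 and 2.44 in DKK1-SE+/+ replicates 1 to 3. It was 29.15, 4.35 and 5.08 in DKK1-SE-/- replicates 1 to 3. Replicate 1 of DKK1-SE-/- thus stood 6.18 times above the mean of the other 2 edited samples in TPM but not in counts. TPM divides the count by a transcript length that is estimated in each library, and the length implied for KLF5 in this sample was 6.11 times below the median of the other 5 samples. Such a gap of over 4 times in 1 sample was seen in 119 of 14918 tested genes with values above 0 in all samples (0.798%). KLF5 has 5 annotated transcripts in GENCODE 44. On log2(TPM + 1), limma gave KLF5 a log2 fold change of 1.55 that was not called (adjusted p = 0.0748). On scaled counts with 1 fixed length per gene, a scale chosen after the values were seen, limma called it (adjusted p = 9.2e-04, log2 fold change 0.85 on the log2(value + 1) scale). Which transcripts were present was not tested, and the counts are used for KLF5 below unless TPM is named.

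**Figure D1:**
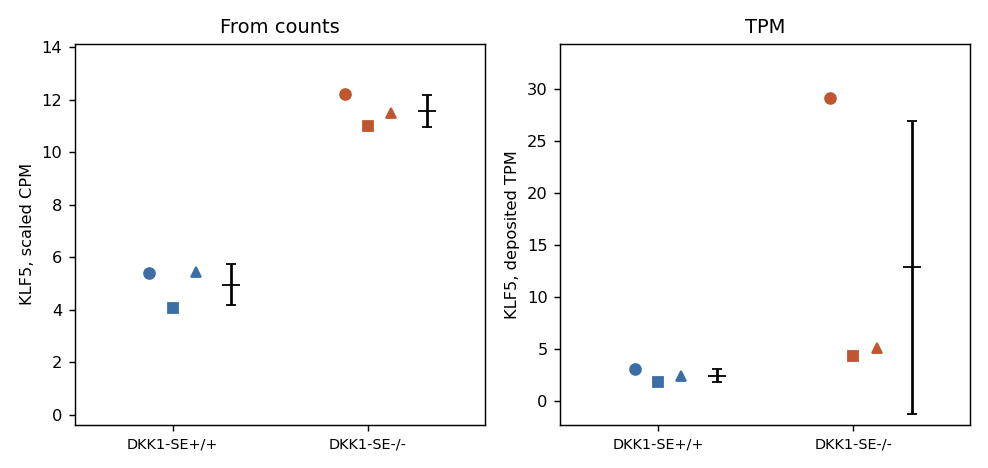
KLF5 in the 6 samples as scaled CPM (left) and as deposited TPM (right), with the mean and SD of each group (n = 3). The groups are separate on both scales, but the TPM of DKK1-SE-/- replicate 1, at 29.15, stands apart from the other 5 samples, which lie between 1.82 and 5.08.

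KLF5 has more than 1 annotated start, so the sequence before a pair of them is shown, because this gene had the largest change among the 5 tested members. RefSeq (GRCh38.p14) places a start at the upstream first exon. The MANE Select transcript of GENCODE 44 starts 4029 bases downstream, at 73059005 on the plus strand of chromosome 13. Each window holds the 250 bases before its start, chr13:73054726-73054975 for the upstream start and chr13:73058755-73059004 for the MANE Select start, in hg38. The upstream window ends at the base before the annotated KLF5 gene, and the MANE Select window lies inside that gene, downstream of the other start. Capitals mark CACCC, bound by KLF proteins, and GGGCGG, the GC box, on either strand.
Upstream start: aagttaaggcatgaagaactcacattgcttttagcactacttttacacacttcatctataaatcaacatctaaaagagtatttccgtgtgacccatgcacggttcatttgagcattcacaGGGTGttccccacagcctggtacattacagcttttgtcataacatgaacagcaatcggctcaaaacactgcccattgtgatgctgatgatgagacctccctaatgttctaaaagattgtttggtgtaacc
MANE Select start: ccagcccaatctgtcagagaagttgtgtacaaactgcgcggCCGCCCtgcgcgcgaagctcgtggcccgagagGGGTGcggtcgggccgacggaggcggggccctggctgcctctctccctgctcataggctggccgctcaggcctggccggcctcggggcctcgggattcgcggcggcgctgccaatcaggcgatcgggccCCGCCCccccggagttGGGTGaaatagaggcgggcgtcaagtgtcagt
The upstream window held 1 CACCC and no GC box, at a GC content of 40.8%. The MANE Select window held 2 CACCC and 2 GC boxes, at a GC content of 70.8%. Of 35116 RefSeq windows of the same length, 54.7% held at least 1 CACCC and 42.6% at least 1 GC box. A match to either was thus common. The share of windows with 2 or more was not counted, and the median GC content of the windows was 58.0%. The AP-1 motif TGANTCA, found in 6.57% of windows, was in neither window shown. The GATA motif AGATAA (9.17% of windows) was also absent from both. The same held for the FOXA motif TGTTTNC (15.5% of windows) and, with the letters ACAAAG, for the SOX motif (13.7% of windows), all searched on both strands. A match is a description of letters and not evidence of binding. The RefSeq table held 5 of the 8 members (GATA6, HNF4A, FOXA1, KLF5 and TP63).

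SOX9 encodes the factor that marks pancreatic progenitors and duct cells. It was the most abundant member, with a mean TPM of 54.3 over all samples, above 85.6% of tested genes. In TPM, DKK1-SE+/+ replicates 1 to 3 had 55.53, 67.05 and 70.29. The values were 45.73, 38.86 and 48.32 in DKK1-SE-/- replicates 1 to 3. The groups did not overlap, in TPM or in scaled counts (158, 188 and 197 CPM against 150, 126 and 139 CPM), but the gap between them was narrow. SOX9 fell by 0.39 on the log2 scale with an SE of 0.12 (edgeR adjusted p = 0.0219), a 1.31-fold decrease. The call rested on several libraries. It was lost without DKK1-SE+/+ replicate 2 (adjusted p = 0.0959), without DKK1-SE+/+ replicate 3 (adjusted p = 0.105) and without DKK1-SE-/- replicate 2 (adjusted p = 0.0911), while the direction stayed the same in all 17 alternative settings. It was also lost with the replicate block (log2 fold change -0.38, adjusted p = 0.0652) and with limma on unfiltered log2(TPM + 1) (adjusted p = 0.0576). With an offset for GC content SOX9 was called at -0.50 (adjusted p = 0.003). With the replicate block added to that offset it was called at -0.50 (adjusted p = 0.00513). SOX9-AS1, an antisense noncoding gene that overlaps SOX9 on the other strand, had 4, 8 and 8 counts in DKK1-SE+/+ and 7, 16 and 13.01 in DKK1-SE-/-. Whether the counting used strand was not given in the sources used here, so antisense reads within the SOX9 counts (2435 to 3760 over the 6 samples) could not be assessed.

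GATA6, a zinc finger factor that maintains the classical programme, was expressed at a low level. Its TPM was 3.32, 4.81 and 4.49 in DKK1-SE+/+ and 4.73, 4.91 and 5.74 in DKK1-SE-/-. The groups overlapped in TPM. In scaled counts they were separate, at 8.66, 12.2 and 11.5 CPM in DKK1-SE+/+ and 13.4, 14.5 and 14.7 CPM in DKK1-SE-/-. The log2 fold change was 0.40 with an SE of 0.16, and it did not pass the test (edgeR adjusted p = 0.0632, unadjusted p = 0.0266). No alternative setting called GATA6, with adjusted p between 0.0708 and 0.507. Its log2 fold change ran from 0.22, with an offset for GC content, to 0.49, without DKK1-SE+/+ replicate 2. Without DKK1-SE+/+ replicate 1 it was 0.23. The antisense gene GATA6-AS1 had 5 to 18 counts per sample and did not pass the filter.

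FOXA1 and FOXA2 encode pioneer factors that open chromatin in foregut endoderm. FOXA2 was the more abundant, with TPM of 10.49, 11.5 and 13 in DKK1-SE+/+ and 11.29, 9.05 and 9.44 in DKK1-SE-/-. The groups overlapped, and the log2 fold change of -0.08 was smaller than its SE of 0.15 (edgeR adjusted p = 0.702). Its longest transcript had a GC content of 59.1%, above 83.2% of tested genes. Across the 15167 tested genes with a GC value, log2 fold changes were higher in GC-rich genes (Spearman's rho = 0.40, taken over genes, which do not replicate each other). With an offset for GC content, FOXA2 was called at a log2 fold change of -0.30 (adjusted p = 0.0393). With the replicate block added to that offset the log2 fold change was again -0.30, and it was not called (adjusted p = 0.0727). FOXA1 was close to the filter, with 3, 3 and 14 counts in DKK1-SE+/+ and 6, 13 and 10 in DKK1-SE-/-. Its log2 fold change of 0.62 had an SE of 0.63, so no difference was detectable at this depth (edgeR adjusted p = 0.461). DKK1-SE+/+ replicate 3 alone held most of the counts of its group, and without it the value was 1.75 (adjusted p = 0.074). The value was 0.16 without DKK1-SE+/+ replicate 1 (adjusted p = 0.876) and 0.34 without DKK1-SE+/+ replicate 2 (adjusted p = 0.76).

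**Figure D2:**
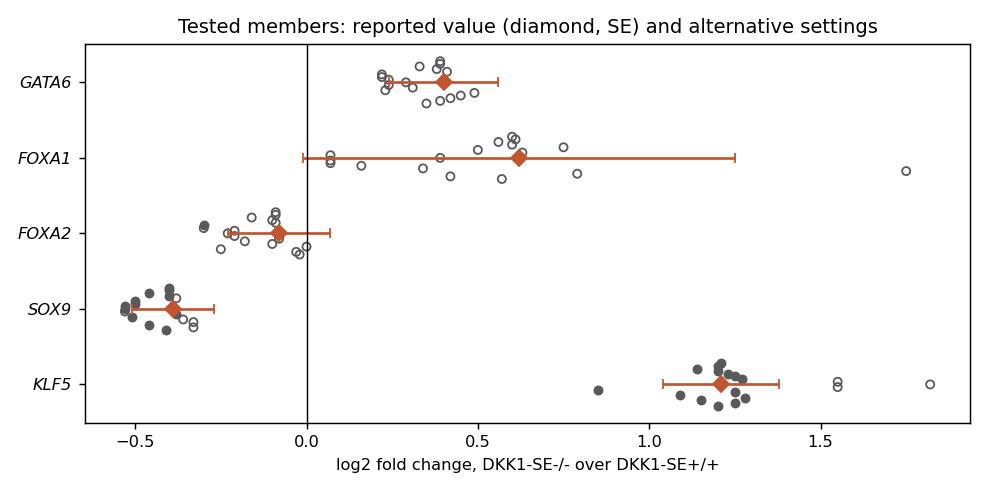
Log2 fold changes of the 5 tested members, DKK1-SE-/- over DKK1-SE+/+. The diamond is the reported value with its SE, and circles are the 17 alternative settings, filled where the adjusted p was under 0.05. The limma settings used log2 of a value plus 1 or 0.1, so their fold changes are on another scale. KLF5 is to the right of 0.8 in every setting, SOX9 lies between -0.53 and -0.33, and GATA6 and FOXA1 have no filled circle.

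HNF4A, PDX1 and TP63 were near the limit of detection. HNF4A, a nuclear receptor of endodermal epithelium, had 1, 5 and 1 counts in both genotypes, in replicates 1 to 3 of each. PDX1, the homeobox factor that specifies the pancreas, had 0, 0 and 2 counts in DKK1-SE+/+ and 2, 8 and 1 in DKK1-SE-/-. TP63, the factor of squamous and basal identity, had 3, 1 and 7 counts in DKK1-SE+/+ and 4, 0 and 4 in DKK1-SE-/-. All 3 genes overlapped between the groups. The exact two-sided permutation test of TPM gave p = 1.0 for HNF4A, p = 0.3 for PDX1 and p = 0.6 for TP63, and 3 against 3 samples cannot give less than 0.1. A count of 0 allows up to 3 counts, or 0.133 to 0.184 CPM in these libraries. The transcripts from the separate promoters of HNF4A and of TP63 are summed in a gene-level table and could not be distinguished.

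In order of mean TPM over the 6 samples, SOX9 (54.3) was followed by FOXA2 (10.8), KLF5 (7.65), GATA6 (4.67), FOXA1 (0.168), TP63 (0.095), HNF4A (0.0767) and PDX1 (0.0583). The KLF5 value carries the raised TPM of DKK1-SE-/- replicate 1. Per kilobase of the deposited gene length, KLF5 was at 1.48 ± 0.235 CPM (SD, n = 3) in DKK1-SE+/+ and 3.45 ± 0.183 in DKK1-SE-/-. On the same scale GATA6 was at 2.98 ± 0.52 and 3.92 ± 0.197. KLF5 was thus below GATA6 in all 6 samples on this scale, and closer to it in DKK1-SE-/-. In TPM it was above GATA6 in DKK1-SE-/- replicate 1 alone. FOXA1, TP63, HNF4A and PDX1, the last in the order, overlapped across samples, as GATA6 and KLF5 did in TPM. The TPM range of KLF5 also took in that of FOXA2, through DKK1-SE-/- replicate 1 alone.

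Paralogs of the members were described next. In the GATA family, 5 of 6 genes were tested. GATA2, the most abundant, rose from a mean TPM of 15.3 ± 0.382 (SD, n = 3) to 20.1 ± 1.84, with a log2 fold change of 0.78 (edgeR adjusted p = 0.00261). It was not called on log2(TPM + 1) by limma. GATA3, GATA4 and GATA5 did not pass the test, and GATA1 was at 0 in every sample. With the GC offset GATA3 (adjusted p = 0.0467) and GATA4 (adjusted p = 0.00169) were called lower, and GATA4 alone of these with the replicate block added (adjusted p = 0.00454). FOXA2 was the most abundant of the FOXA family, in which neither of the 2 tested genes was called.

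TP73, a paralog of TP63 that shares targets with it, fell by 1.01 on the log2 scale (edgeR adjusted p = 0.0028), from 3, 2.97 and 3.26 TPM to 1.66, 1.24 and 0.9 TPM, while TP63 itself was near 0 in every sample.

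In the KLF family 13 of 18 genes were tested, with 2 higher and 2 lower in DKK1-SE-/-. Over all tested genes 19.8% were called higher and 19.5% lower, so these counts were no larger a share than the background. The median log2 fold change was 0.21 against 0.03 over all tested genes. KLF14 had 0, 1 and 0 counts in DKK1-SE+/+ and 24, 15 and 15 in DKK1-SE-/-, and was the other gene to rise beside KLF5 (edgeR adjusted p = 5.0e-04). KLF12 fell by 1.46 on the log2 scale (edgeR adjusted p = 4.7e-04). KLF10 was also called lower (adjusted p = 0.048), but this held without only 1 of the 6 samples, with adjusted p up to 0.191. KLF6, the most abundant, and KLF4 did not pass the test. In the SOX family 8 of 19 genes were tested, with a median log2 fold change of 0.14. SOX9 was the most abundant. SOX21 went from 3.1, 3.22 and 3.19 TPM to 0.23, 0.26 and 0.67 TPM, and fell by 2.92 on the log2 scale (edgeR adjusted p = 5.3e-05). SOX4 fell by 0.74 on the log2 scale (adjusted p = 7.3e-04), while SOX13 rose by 1.16 (adjusted p = 1.6e-04). SOX1, SOX3, SOX11 and SOX14 were at 0.

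The lineage programmes around the members were then described by counts. Over all tested genes 19.8% were called higher and 19.5% lower, and no list was tested against these shares. A gene could pass the filter on low counts through 1 group alone. LAMA3, DSC3, SPP1 and KLF14 were among those that did so through DKK1-SE-/-, and BICC1 passed through DKK1-SE+/+. Such genes are included in the counts of tested and called genes. The list of pancreatic developmental and endocrine factors held 30 genes, of which 10 were tested, 1 was called higher and 4 were called lower (median log2 fold change -0.27). With no filter on low counts 4 were called higher and 5 lower. On log2(TPM + 1) limma called 0 higher and 2 lower, and on unfiltered log2(TPM + 1) 1 higher and 0 lower. HHEX, a factor of ventral pancreas and liver buds, fell by 0.85 on the log2 scale (edgeR adjusted p = 0.00531), from a mean TPM of 6.74 ± 0.508 to 3.72 ± 0.804 (SD, n = 3). MEIS1 fell by 1.38 (adjusted p = 0.0117), TEAD1, the most abundant, by 0.49 (adjusted p = 0.0191) and GLIS3 by 0.47 (adjusted p = 0.0239). ONECUT2 rose by 0.74 (adjusted p = 0.0332), and was not called with library size alone (adjusted p = 0.0625). Only HHEX among these kept its call without each sample in turn. MEIS1, TEAD1, GLIS3 and ONECUT2 lost it without at least DKK1-SE+/+ replicate 2 (adjusted p = 0.06, 0.07, 0.12 and 0.106), and the count called lower went from 1 to 6 over the 6 reduced sets. PTF1A, NEUROG3, NEUROD1 and PAX4 were at 0 in every sample.

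Among 13 epithelial transcription factors 6 were tested. TFCP2L1 fell by 1.23 on the log2 scale (edgeR adjusted p = 5.8e-04), from a mean TPM of 1.26 ± 0.235 to 0.483 ± 0.0551 (SD, n = 3). CDX2, an intestinal factor, had 6, 9 and 6 counts in DKK1-SE+/+ and 15, 28 and 14 in DKK1-SE-/-, and was called higher (adjusted p = 0.0218). It lost the call without DKK1-SE+/+ replicate 1 (adjusted p = 0.105), without DKK1-SE+/+ replicate 3 (adjusted p = 0.0778) and without DKK1-SE-/- replicate 2 (adjusted p = 0.114). KLF4 was the most abundant, the median log2 fold change was 0.26, and CDX1 was at 0.

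Of 24 classical subtype genes 2 were tested, and 10 were at 0 in every sample (BTNL8, FAM3D, AGR3, TFF2, PLA2G10, ST6GALNAC1, TFF3, CYP3A7, CLRN3 and REG4). AGR2, a protein disulfide isomerase of secretory cells, made up most of the list, and its mean TPM was 299 ± 25.9 in DKK1-SE+/+ and 229 ± 24.4 in DKK1-SE-/- (SD, n = 3). Its log2 fold change of -0.20 did not pass the test (edgeR adjusted p = 0.191). The groups overlapped in scaled counts but not in TPM, and limma called AGR2 lower on log2(TPM + 1) (adjusted p = 0.0329) and on log2(TPM + 0.1) (adjusted p = 0.0342). CEACAM6, a cell surface adhesion protein, had 30, 31 and 21 counts in DKK1-SE+/+ and 9, 12 and 9 in DKK1-SE-/-, and fell by 1.34 on the log2 scale (adjusted p = 0.0153). Without DKK1-SE+/+ replicate 2 its adjusted p was 0.0827. No classical gene was called higher as reported. CDH17 did not pass the filter, with 7, 0 and 1 counts in DKK1-SE+/+ and 6, 18 and 20.03 in DKK1-SE-/-. It was called higher with no filter on low counts (adjusted p = 0.00248), without DKK1-SE+/+ replicate 1 (adjusted p = 0.00703) and without DKK1-SE-/- replicate 1 (adjusted p = 0.0197).

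Squamous factors were called in both directions. Of 12 squamous transcription factors 9 were tested, with 1 called higher and 4 lower and a median log2 fold change of -0.38. TFAP2A, an AP-2 factor of surface ectoderm, had a TPM of 9.17, 11.54 and 12.11 in DKK1-SE+/+ and 19.13, 18.65 and 21.53 in DKK1-SE-/-, and rose by 0.93 on the log2 scale (edgeR adjusted p = 2.3e-04). Its paralog TFAP2C fell by 0.63 (adjusted p = 0.0104), a call lost without DKK1-SE+/+ replicate 3 (adjusted p = 0.0569). GLI2, an effector of hedgehog signalling, fell by 0.73 (adjusted p = 9.4e-04) and RUNX1 by 0.47 (adjusted p = 0.00652). The fourth gene called lower was TP73, given above. HMGA2, a chromatin protein and the most abundant, did not pass the test.

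Basal-like subtype genes moved both ways. Of 25 genes 10 were tested, with 3 called higher and 4 lower, and a median log2 fold change of -0.35. SCEL, a protein of the cornified envelope, had 11, 2 and 4 counts in DKK1-SE+/+ and 63, 138 and 177 in DKK1-SE-/- (edgeR adjusted p = 4.6e-05). KRT15, a keratin of basal cells, rose by 2.10 on the log2 scale (adjusted p = 5.4e-05) and AREG, an EGFR ligand, by 0.59 (adjusted p = 0.00244). Against these, DHRS9 fell by 2.03 (adjusted p = 5.6e-06), TNS4 by 2.02 (adjusted p = 4.1e-05), KRT17 by 1.74 (adjusted p = 0.00421) and SLC2A1, the most abundant, by 0.68 (adjusted p = 0.00344), the last not called on log2(TPM + 1) by limma (adjusted p = 0.0801). Of the list, 8 genes were at 0 in every sample (VGLL1, LY6D, SPRR3, SPRR1B, LEMD1, SERPINB3, KRT6C and SERPINB4).

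Genes typical of p63-expressing basal cells were also divided, with 10 of 15 tested, 3 higher, 3 lower and a median of 0.19. LAMA3, a laminin chain, had 1, 2 and 0 counts in DKK1-SE+/+ and 170, 181 and 197 in DKK1-SE-/- (edgeR adjusted p = 3.8e-07). DSC3, a desmosomal cadherin, had 1.06, 1.13 and 1.02 counts in DKK1-SE+/+ and 30.91, 47.83 and 48.96 in DKK1-SE-/- (adjusted p = 1.9e-05). ITGB4, an integrin of hemidesmosomes, rose by 1.09 on the log2 scale (adjusted p = 2.8e-04). PERP, a p63 target of desmosomes and the most abundant, fell by 1.58 (adjusted p = 1.3e-06), from a TPM of 230.1, 244.3 and 240.6 to 64.64, 69.51 and 82.64. DST fell by 1.06 (adjusted p = 0.00313). ITGA6 was called lower (adjusted p = 0.0247) but held without only 2 of the 6 samples, with adjusted p up to 0.111. KRT14 was at 0 in every sample, and KRT5 had at most 1 count.

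Mesenchymal transcription factors were tested in 11 of 18 cases, with 2 called higher and 4 lower, and a median log2 fold change of -0.12. ZEB1, a repressor of epithelial genes, had a TPM of 9.17, 9.57 and 9.81 in DKK1-SE+/+ and 2.75, 4.01 and 4.55 in DKK1-SE-/-, and fell by 1.27 on the log2 scale (edgeR adjusted p = 2.0e-04). GLI3 fell by 2.46 (adjusted p = 4.3e-05), PRRX2 by 1.33 (adjusted p = 0.00403) and FOXC2, the most abundant, by 0.73 (adjusted p = 0.00103). These 4 genes kept their calls without each sample in turn. TWIST2 went the other way, from 8, 6 and 10 counts to 62, 49 and 40 counts, a log2 fold change of 2.77 (adjusted p = 2.6e-04). SNAI1 rose by 0.59 (adjusted p = 0.0115), a call lost without DKK1-SE+/+ replicate 1 (adjusted p = 0.0634). ZEB2 and SNAI2 did not pass the test.

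**Figure D3:**
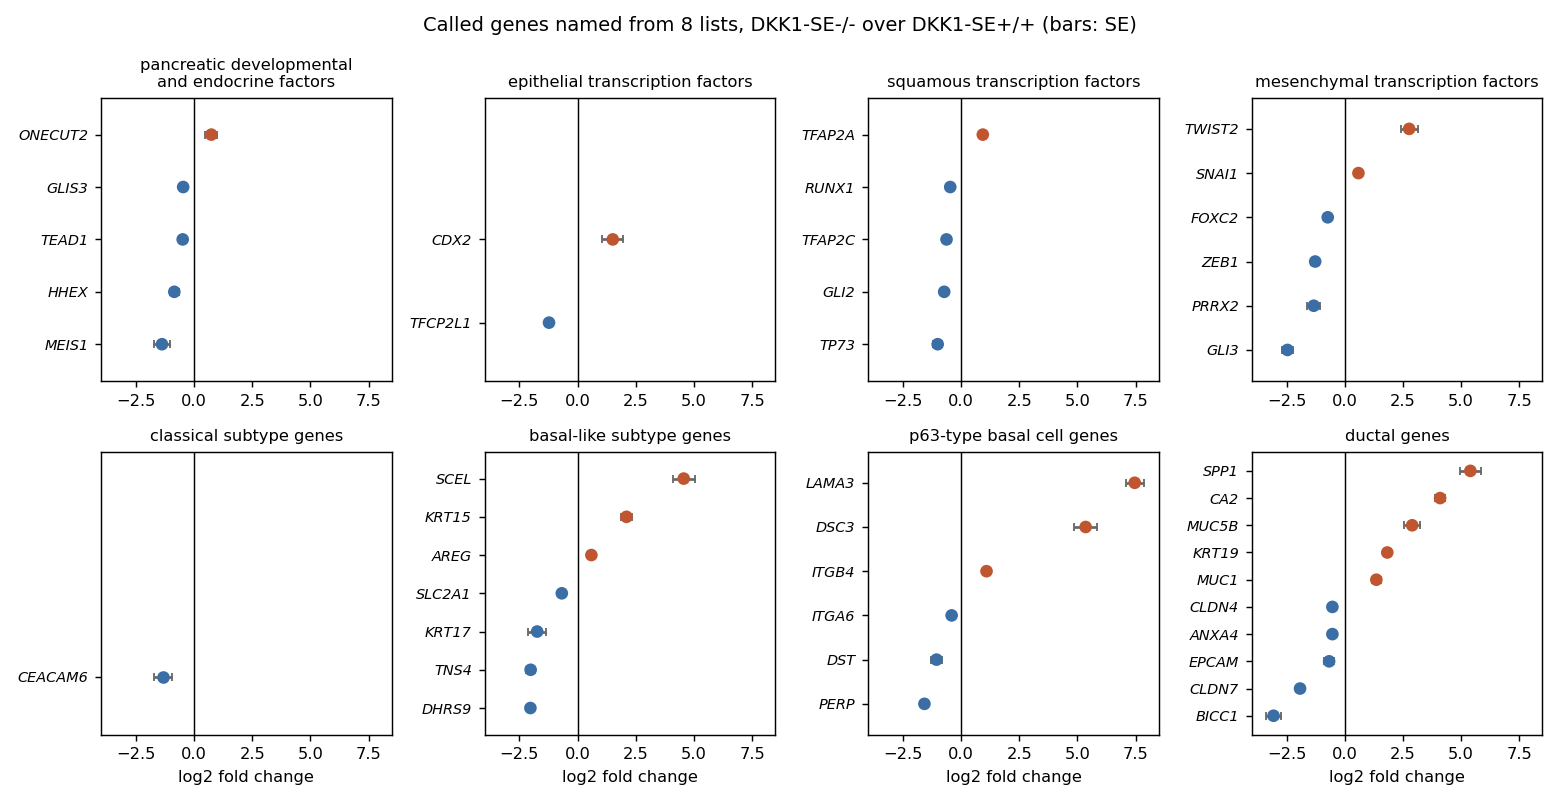
Log2 fold changes of the called genes named from 8 lists, with bars for the SE and the same axis in each panel. Only called genes are drawn, at most 5 with the smallest p in each direction. Mesenchymal factors include TWIST2 at 2.77 and GLI3 at -2.46, and ductal genes lie on both sides of 0.

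Of 20 ductal genes 14 were tested, with 7 called higher, 5 lower and a median log2 fold change of 0.39. KRT19, a keratin of simple epithelium, had a TPM of 48.21, 53.82 and 59.78 in DKK1-SE+/+ and 197.6, 172.2 and 145.9 in DKK1-SE-/-, and rose by 1.83 on the log2 scale (edgeR adjusted p = 1.4e-05). KRT8, the most abundant, rose by 0.86 (adjusted p = 5.2e-04), and KRT18 was also called. CA2, a carbonic anhydrase of duct cells, rose by 4.10 (adjusted p = 6.0e-07), from 15, 8 and 9 counts to 148, 198 and 165 counts. SPP1, which encodes osteopontin, had 1 to 3 counts in DKK1-SE+/+ and 56, 73 and 82 in DKK1-SE-/- (adjusted p = 9.1e-06). The mucin genes MUC1, with a log2 fold change of 1.36 (adjusted p = 2.7e-04), and MUC5B, with 2.90 (adjusted p = 1.3e-04), also rose. CLDN7 fell by 1.92 (adjusted p = 2.3e-05) and CLDN4 by 0.53 (adjusted p = 0.00861). BICC1 fell by 3.06 (adjusted p = 4.4e-05) and ANXA4 by 0.53 (adjusted p = 0.00324), the latter not called with the GC offset (adjusted p = 0.289). EPCAM was called lower (adjusted p = 0.0395), but in only 1 of the 6 sets with a sample left out, with adjusted p up to 0.123. CDH1 did not pass the test, and PKHD1 was at 0.

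The labelled cell type was checked against markers. The summed TPM of KRT8, KRT18, KRT19, EPCAM, CDH1 and KRT7 was 1850, 1890 and 1920 in DKK1-SE+/+ and 3150, 3090 and 2660 in DKK1-SE-/-. Most of it came from KRT8 and KRT18. Of these 6 genes KRT8, KRT18 and KRT19 were called higher and EPCAM lower, and CDH1 and KRT7 were not called. The summed TPM of VIM, CDH2 and ZEB1, markers of mesenchymal state, was 3770, 4240 and 4550 in DKK1-SE+/+ and 2820, 2540 and 2710 in DKK1-SE-/-, almost all from VIM. All 3 genes were called lower, while TWIST2 and SNAI1, given above, were called higher. The duct markers CFTR, SPP1, MUC1 and CA2 summed to 8.76, 10.2 and 12.3 TPM in DKK1-SE+/+ and 37.5, 44.5 and 33.7 TPM in DKK1-SE-/-, whereas 5 of the 14 tested ductal genes above and SOX9 were called lower. Acinar markers summed to at most 0.2 TPM, with CELA3A, PNLIP and AMY2A at 0, and endocrine markers to at most 0.33 TPM, with INS and SST at 0. Of the 18 genes of other cell types 3 were tested and 2 were called, both higher. They were CD68, a lysosomal protein also found outside macrophages and the most abundant of the list, at a mean TPM of 43.5 ± 2.81 and 66.6 ± 1.61 (SD, n = 3; edgeR adjusted p = 4.1e-04), and CD14 (adjusted p = 0.00539). The list summed to 48.9, 47.0 and 50.9 TPM in DKK1-SE+/+ and 70.5, 69.8 and 72.1 TPM in DKK1-SE-/-, S100B and HBB were at 0, and its part in the results was not tested.

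Genes of other lineages were scarce. None of the 17 acinar genes was tested, and CEL was the most abundant, with group means of 0.193 TPM in DKK1-SE+/+ and 0.213 TPM in DKK1-SE-/-. Of 17 endocrine genes 3 were tested (median log2 fold change 0.23). SCG2, a granin, rose from 13, 8 and 7 counts to 25, 37 and 60 counts (edgeR adjusted p = 0.00172), and SYP, the most abundant, did not pass the test. Of 15 liver genes regulated by HNF4A and FOXA factors, SERPINA1, the most abundant, and TF were tested and not called (median 0.03). ALB, APOA2, APOC3, TTR, FGA and AHSG were at 0. Of 10 noncoding genes near the members 8 were named in the table. LINC00261, next to FOXA2, had a TPM of 2.26, 2.89 and 3.54 in DKK1-SE+/+ and 3.36, 4.66 and 3.64 in DKK1-SE-/-, and neither it nor LINC00511, the most abundant, was called (median 0.18). LINC00261 was called higher with the GC offset (adjusted p = 0.025) and without DKK1-SE-/- replicate 1 (adjusted p = 0.0484). HNF4A-AS1, PLUT and MIR205HG were at 0.

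The genes of these lists most like the called members across the 6 samples were found by Pearson's r of log2(TPM + 1) among 79 genes with a mean TPM of at least 1. For SOX9 they were BHLHE40 (r = 0.954), HHEX (r = 0.950) and FOXC2 (r = 0.946). From counts, the order for SOX9 shared none of these, with RUNX1 (r = 0.971), GATA4 (r = 0.946) and GRHL3 (r = 0.941). For KLF5 they were SOX12 (r = 0.921), KLF2 (r = 0.917) and SNAI1 (r = 0.854), values that carry the high TPM of KLF5 in DKK1-SE-/- replicate 1. From counts the order for KLF5 was CD68 (r = 0.981), CA2 (r = 0.976) and TWIST2 (r = 0.967). The counts were added after the values were seen. Each r was taken over both genotypes and depends on the scale, so these values are a description.

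Genes around the members were counted, without a test against the shares of all tested genes (19.8% higher, 19.5% lower). In GENCODE 44, KLF5 is at chr13:73054976-73077541 on the plus strand. Of the 19 other tested genes within 5 megabases, 3 were called higher and 4 lower, with a median log2 fold change of -0.05. SOX9 is at chr17:72121020-72126416 on the plus strand. Of the 103 tested genes around it 23 were called higher and 7 lower, with a median of 0.19. GATA6 is at chr18:22169589-22202528 on the plus strand, and around it 5 of 22 tested genes were called higher and 5 lower. FOXA2 is at chr20:22580998-22585455 on the minus strand, and around it 2 of 44 were called higher and 9 lower.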

How the data were processed

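RNA-seq libraries were made with a stranded mRNA kit, and the submitters' processing notes name the build hg38. The aligner, the counting tool and its strand setting were not given in the sources used here. The authors deposited 1 table of expected counts per gene and sample, which need not be whole (32.3% of those above 0 were not). The authors also deposited TPM, computed per library, and 1 length per gene. Columns of their own comparison (group means, fold changes, p-values and calls) were not used.

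Expected counts were rounded to whole numbers. Genes were filtered with filterByExpr (minimum count 10), scaled by TMM and compared with edgeR 4.0.16 (glmQLFit, glmQLFTest) in R 4.3.3, 3 DKK1-SE-/- against 3 DKK1-SE+/+ samples, without covariates. The SE is the log2 fold change over the square root of F. Code was tested on simulated counts. DESeq2 1.42.0 and limma 3.58.1 served as alternatives, beside other scalings and filters, a GC offset in 40 bins, the replicate block and each sample left out. Replicates of a genotype correlated at r = 0.983 to 0.990 in log2(TPM + 1). The members and lists were chosen with earlier results of these data known. Genes named from a list were the called ones, at most 5 with the smallest p in each direction, the most abundant by mean TPM, cell type markers and genes at 0. For each called member the 3 list genes with the highest r were named. Some genes of the lists are not reported here.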

Additional observations from a re-analysis of the deposited data

How the results depend on the processing

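KLF5 was higher in DKK1-SE-/- in all 17 alternatives and called in 14, with a log2 fold change between 0.85 and 1.82. Both ends came from limma on unlike scales. The 0.85 was on log2(value + 1) with 1 fixed length per gene, and the 1.82 on log2(TPM + 0.1). With a sample left out, edgeR on counts gave 1.09 to 1.28. KLF5 missed the threshold in limma on log2(TPM + 1) (adjusted p = 0.0748), log2(TPM + 0.1) (adjusted p = 0.0618) and unfiltered log2(TPM + 1) (adjusted p = 0.239). SOX9 was lower in all 17 and called in 12, with a log2 fold change between -0.53 and -0.33. The count of members called was 1 with limma on log2(TPM + 1) and on log2(TPM + 0.1), 0 without the filter on TPM, and 1 to 2 with a sample left out. Members past the fold limit numbered 3 when 1.2 was read as a linear fold, 0 with library size alone, with no filter on low counts, with unfiltered log2(TPM + 1) and with 1 fixed length per gene, and 0 to 2 with a sample left out. KLF5 was under the limit in 3 of these 6 sets (1.09 without DKK1-SE+/+ replicate 2), and without DKK1-SE+/+ replicate 3 FOXA1 passed it beside KLF5 (1.75). Members failing the filter numbered 0 in both settings with no filter. With unfiltered log2(TPM + 1), 2320 of 31101 genes were called, against 5972, and 30 genes of the lists, against 56. On log2(TPM + 1) the median over tested genes went from 0.03 to -0.08, and 1491 of 4161 calls were higher, against 3013 of 5972. Of the 58 called genes named, 58 kept their direction in the settings that tested them and 46 their call without each sample. On log2(TPM + 1) KLF5, GATA2, SLC2A1, SNAI1, CDX2, MEIS1, GLIS3, ONECUT2, EPCAM and ANXA4 were not called.

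Samples with the same number did not deviate together (r = -0.12, -0.07 and -0.11). The deviations were centred within groups of 3 and the labels give only a number, so a shared batch could not be assessed. With the replicate block 1 member (KLF5) and 4981 genes were called, and no sample correlated best with its own number. The GC offset called FOXA2, at -0.30 (adjusted p = 0.0393), and changed list counts: 2 genes of the GATA family were called lower, against 0, and 4 of the KLF family higher, against 2. At 16475810 to 21822314 counts per sample, differences in HNF4A, PDX1, TP63 and FOXA1 could not be resolved. The causes of these shifts were not tested.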

Other observations

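HNF4A, at chr20:44355699-44432845 on the plus strand, had 62 tested genes within 5 megabases. Of these 35 were called higher in DKK1-SE-/- and 1 lower, with a median log2 fold change of 0.48. Of all tested genes 19.8% were called higher and 19.5% lower, and the median was 0.03. HNF4A itself had 1, 5 and 1 counts in both genotypes. Around PDX1, 2 of 37 tested genes were called higher and 14 lower, with a median of -0.29. Around FOXA1, 1 of 32 was called higher and 5 lower, and around TP63, 5 of 40 higher and 7 lower. The region around HNF4A was singled out after its values were seen, neighbouring genes are not independent, and the difference between regions was not tested.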
